A study of Mus musculus with 6 samples.

Results

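Adipokines are proteins that fat cells secrete and that act on other organs or on fat itself. The genes described here were 8 rows of the expression tables of inguinal fat, chosen by name: Adipoq, Lep, Retn, Nampt, Apln, Agt, Nnat and Car3, out of 17342 named genes. Of these, 6 encode factors that adipocytes secrete. Nnat and Car3 encode proteins that stay in the cell and are counted here as abundant adipocyte genes, not as hormones. RNA-seq was made from the inguinal white fat (a subcutaneous depot) of C57BL/6 mice aged 8 weeks after cold stimulation. The mutant mice were Rarres2-/- (replicates 4, 5 and 6), which lack the gene for chemerin, itself an adipokine, and the controls were wild type, WT (replicates 1, 2 and 3). Both genotypes were exposed to cold, and fat from unexposed mice was not analysed here. Whether each library came from a separate mouse is not in the labels, so the p-values may measure only the spread between libraries. For the deleted part of Rarres2, the sex of the mice, the temperature and the length of the exposure, the sources used here give nothing.

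Adiponectin, the product of Adipoq, is released in multimers that raise insulin sensitivity in liver and muscle, and leptin, the product of Lep, reports the size of the fat store to the hypothalamus. Resistin (Retn) is made by white adipocytes in the mouse, whereas in humans it comes mainly from myeloid cells. In cold, sympathetic nerves drive lipid breakdown and heat production in this depot, and leptin expression is known to be repressed by the same adrenergic signals. Expression was deposited as FPKM, fragments scaled by transcript length and by the mapped total, which allows levels to be compared between genes. All 8 genes had a mean of at least 1 FPKM over the 6 libraries, the minimum for a test, so none was lost to the filter on low values.

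The upstream DNA of these genes was examined because their levels moved together in some libraries and apart in others. RefSeq promoter windows on GRCm38.p6 were found for 7 of the 8 genes, with Car3 the exception. The 250 bases before the annotated start are printed for 4 of them, 5′ to 3′ on the gene's own strand. They are Lep (chr6:29059971-29060220, plus strand), Nampt (chr12:32820085-32820334, plus strand), Adipoq (chr16:23146286-23146535, plus strand) and Retn (chr8:3655520-3655769, plus strand). Capitals mark matches, on either strand, to 6 short motifs. These were TATAAA for the box that positions the start, TTGCNNAA for C/EBP factors, AGGTCA for the core of nuclear receptor sites, CACGTG for the E-box, GGGCGG for the GC box and TGACG for the core of the cAMP response element.
Lep: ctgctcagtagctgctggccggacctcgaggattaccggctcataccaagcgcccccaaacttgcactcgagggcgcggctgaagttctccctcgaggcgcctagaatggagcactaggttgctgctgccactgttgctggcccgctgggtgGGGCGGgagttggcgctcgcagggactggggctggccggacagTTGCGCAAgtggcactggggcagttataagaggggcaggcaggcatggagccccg
Nampt: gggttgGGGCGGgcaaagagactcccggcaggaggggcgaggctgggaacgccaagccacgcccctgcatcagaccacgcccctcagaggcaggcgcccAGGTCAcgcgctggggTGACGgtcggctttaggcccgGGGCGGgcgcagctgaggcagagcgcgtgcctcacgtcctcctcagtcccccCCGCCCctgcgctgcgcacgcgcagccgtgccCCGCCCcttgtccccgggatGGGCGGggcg
Adipoq: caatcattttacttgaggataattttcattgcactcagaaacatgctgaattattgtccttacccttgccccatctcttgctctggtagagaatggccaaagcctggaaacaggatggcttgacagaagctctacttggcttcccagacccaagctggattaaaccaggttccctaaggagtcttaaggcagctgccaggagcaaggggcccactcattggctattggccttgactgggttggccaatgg
Retn: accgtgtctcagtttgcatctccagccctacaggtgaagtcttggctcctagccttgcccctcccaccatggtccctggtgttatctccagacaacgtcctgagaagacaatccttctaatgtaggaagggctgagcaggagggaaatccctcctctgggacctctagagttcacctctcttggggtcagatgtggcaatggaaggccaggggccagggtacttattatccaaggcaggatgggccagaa

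The Lep window held the palindrome TTGCGCAA, which reads the same on both strands, between 55 and 48 bases before the start, and a GC box between 98 and 93 bases before it. A C/EBP match stood in 9.55% and a GC box in 32.9% of the 27025 mouse promoter windows of the same length. The Nampt window was 75.6% G and C and held 5 GC boxes, 1 AGGTCA and 1 TGACG. The motif AGGTCA was found in 13.8% and TGACG in 17.9% of all windows. None of the 6 motifs, spelled as above, was in the windows of Adipoq, Retn or Nnat, which says only that these letters are not there. Of the windows not printed, that of Agt held the motif TATAAA between 30 and 25 bases before the start, as did 13.0% of all windows at some position, and that of Apln held 1 GC box. CACGTG, which none of the 7 windows held, was in 6.05% of all windows. No match overlapped a match to another motif. In GENCODE on GRCm38, Lep lies on chromosome 6 (29060220 to 29073877, plus strand), Adipoq on chromosome 16 (23146536 to 23158028, plus strand) and Retn on chromosome 8 (3655770 to 3660110, plus strand). Car3 is on chromosome 3 (14863512 to 14872523, plus strand), Nampt on chromosome 12 (32819545 to 32853349, plus strand), Agt on chromosome 8 (124556534 to 124569706, minus strand) and Apln on chromosome X (48025146 to 48034853, minus strand). The printed windows follow RefSeq starts, and that of Nampt lies inside the longer GENCODE gene. These motif matches are descriptions of sequence and not of binding.

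The targeted gene was nearly absent where the labels say it should be. Rarres2 was at 0.260, 6.35 and 1.41 FPKM in Rarres2-/- libraries, against 436, 610 and 505 FPKM in WT libraries. Its log2 difference was -7.51 (SE 0.592), with an adjusted p of 0.0597 by limma, which was under 0.05 in some alternative fits. In GENCODE, 892 exon bases of Rarres2 overlap those of Lrrc61 on the opposite strand, and whether fragments were assigned by strand is unknown from the sources used here. Relative depth, read from the spacing of the lowest values, was 0.700 to 1.005 in Rarres2-/- and 0.495 to 1.013 in WT libraries, with WT replicate 2 set to 1, and absolute depth is unknown. Rarres2-/- replicate 4 and WT replicate 1 held the lowest or highest value of all 6 for 46.8% and 52.8% of tested genes, and the other 4 for 19.2% to 32.2%. Snord2, a small nucleolar RNA gene, took 62.1% of the summed FPKM in WT replicate 1 and was listed at 0 in the other 5 libraries.

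The fat identity of the tissue was plain in every library. All 10 markers of white adipocytes were present, none at 0, and their summed level was 32673 to 65147 FPKM in Rarres2-/- and 43261 to 52529 FPKM in WT libraries. Most of that sum is Fabp4, the fatty acid binding protein of adipocytes, at 22503, 49972 and 50671 FPKM in Rarres2-/- and 39212, 32318 and 41460 FPKM in WT libraries, so the sum follows this gene and was lowest in Rarres2-/- replicate 4. Adipoq, Pnpla2, Lpl and Pparg were also lowest in that library, but the other markers were not. Plin1, the gene of the lipid droplet coat protein perilipin, was at 844, 679.9 and 844 FPKM in Rarres2-/- libraries, against 530, 602 and 526 FPKM in WT libraries, and Aqp7, a glycerol channel gene, was at 69.5, 36.0 and 54.5 FPKM in Rarres2-/- libraries, against 65.4, 36.6 and 42.9 FPKM in WT libraries. Of the 10 markers 9 were higher and 1 lower in Rarres2-/-, with a median log2 difference of 0.15 and 0 passing the test, a split that was 8 to 2 with upper-quartile scaling and 6 to 4 without Rarres2-/- replicate 5, Rarres2-/- replicate 6 or WT replicate 2. Groups did not overlap for 4 of them (Plin1, Cidec, Lipe and Cd36, all higher in Rarres2-/-), beside 5.81% of all tested genes. Plin1, Aqp7, Pnpla2, Lpl, Cidec, Lipe and Cd36 were named after their values were seen. Other cell types were also measured. Endothelial markers (8 of 8 tested) summed to 182, 49.1 and 57.9 FPKM in Rarres2-/- replicates 4, 5 and 6, and to 278, 51.7 and 53.2 FPKM in WT replicates 1, 2 and 3. Skeletal muscle markers (9 of 10 tested) summed to 318 to 539 FPKM in Rarres2-/- and to 191 to 1525 FPKM in WT libraries, highest in WT replicate 1. Macrophage markers (10 of 10 tested) summed to 816 to 1051 FPKM in Rarres2-/- and to 419 to 1781 FPKM in WT libraries, lowest in WT replicate 1. Progenitor and fibroblast markers (8 of 8 tested) summed to 1786 to 2070 FPKM in Rarres2-/- and to 936 to 4524 FPKM in WT libraries, and nerve markers (5 of 7 tested) to 43.1 to 104 FPKM in Rarres2-/- and to 30.4 to 243 FPKM in WT libraries. Erythroid markers summed to 482 to 863 FPKM in Rarres2-/- and to 576 to 884 FPKM in WT libraries. Lists for B cells, T cells, neutrophils and epithelium each summed to at most 25.6 FPKM in Rarres2-/- and 43.6 FPKM in WT libraries. Macrophage markers split into 0 higher and 10 lower in Rarres2-/-, nerve 0 and 5, endothelial 2 and 6, and progenitor and fibroblast 2 and 6. The split was 4 and 5 for skeletal muscle, 3 and 2 for T cells, and 1 and 2 for B cells. It was 2 and 1 for neutrophils, 2 and 1 for erythroid markers and 1 and 0 for epithelium. No marker gene passed the test. In bulk tissue, fewer cells of a type and less RNA per cell cannot be told apart.

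The 8 genes covered a wide range of levels, and their order of levels was nearly fixed. Car3 was the highest, at 7494 to 13521 FPKM over the 6 libraries (rank 6 of all named genes by mean), followed by Retn at 1627 to 5985 FPKM and Adipoq at 2118 to 2809 FPKM. Nnat came next at 658 to 1919 FPKM, then Lep at 176 to 394 FPKM and Nampt at 42.7 to 78.2 FPKM. Agt, at 17.4 to 22.9 FPKM, and Apln, at 1.41 to 3.58 FPKM, were the lowest. Only Retn and Adipoq, among neighbours in this order, had ranges that overlapped. In 5 libraries Retn stood at rank 2 of the 8 and Adipoq at rank 3, whereas in Rarres2-/- replicate 4 Retn stood at rank 4, after Adipoq and Nnat. Together the 8 genes made up 2.96% to 3.59% of the summed FPKM in Rarres2-/- libraries and 3.04% to 3.44% in WT libraries, with small RNA genes left out of the sum.

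**Figure D1:**
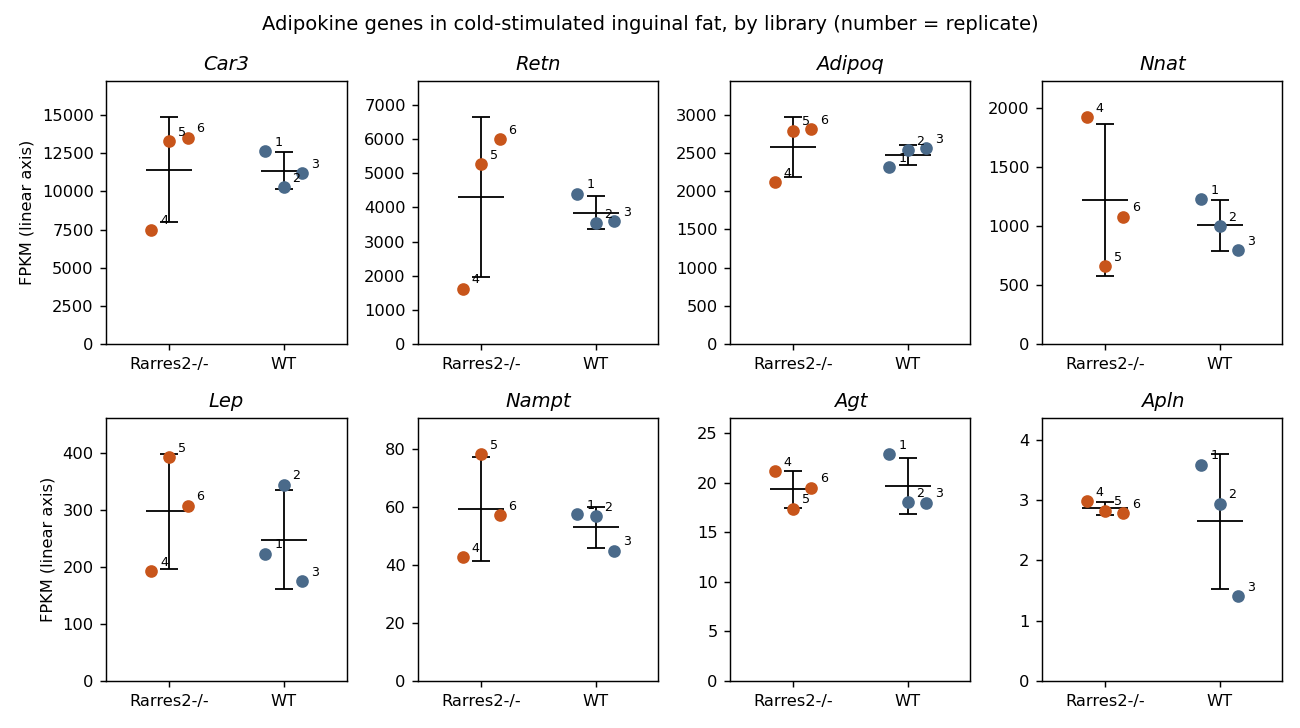
FPKM (linear axes from 0) of the 8 genes in each library, with Rarres2-/- left of WT in every panel; points are libraries numbered by replicate, long bars are means and whiskers are SDs (n = 3 each). The genotypes overlap in all 8 panels, and Rarres2-/- replicate 4 is the lowest library for Car3, Retn, Adipoq and Nampt and the highest for Nnat.

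None of the 8 genes differed between genotypes beyond the spread of the libraries. By limma on log2(FPKM + 1), 0 of 8 had an adjusted p under 0.05, and each had an adjusted p of 0.999. Over all 11086 tested genes 0 passed (0%), and 436 had an unadjusted p under 0.05 (3.93%), none of them among the 8. Of all tested genes 1146 (10.3%) had groups that did not overlap, and again this held for 0 of the 8. Of the 8 log2 differences 5 were above 0, beside 48.6% of all tested genes. Genotype accounted for 0.123% to 9.01% of the sum of squares of each gene's log2 values, against a median of 10.6% over all tested genes. These are non-calls with wide intervals and do not show that the levels were equal.

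Adipoq was the steadiest of the abundant adipokine genes. It stood at 2118, 2788 and 2809 FPKM in Rarres2-/- libraries, against 2315, 2536 and 2563 FPKM in WT libraries. The Rarres2-/- values lay on both sides of the WT range, with replicate 4 below it and the others above. The log2 difference was 0.05 (SE 0.236, 95% interval -0.51 to 0.61), equal to a ratio between 0.700 and 1.52, and it was below 0 without Rarres2-/- replicate 5 (-0.02) or replicate 6 (-0.023). The SD of its log2 values over the 6 libraries was 0.157, smaller than in all but 19.2% of tested genes.

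Lep had the largest difference in mean log2 value of the 8, and it was small beside its spread. It was at 193, 394 and 308 FPKM in Rarres2-/- libraries, against 224, 345 and 176 FPKM in WT libraries. Rarres2-/- replicate 4 lay between the lowest WT libraries and Rarres2-/- replicate 6 between the highest, so the groups overlapped almost completely. On the log2 scale, Rarres2-/- minus WT was 0.26 (SE 0.353, 95% interval -0.58 to 1.0996), a ratio between 0.669 and 2.14. It stayed above 0 when any library was left out, between 0.03 and 0.54. Set against Adipoq in the same library, Lep was 0.0910, 0.141 and 0.110 of it in Rarres2-/- libraries and 0.0967, 0.136 and 0.0685 of it in WT libraries, again with overlap.

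Retn was the most uneven of the 8. It was at 1627, 5266 and 5985 FPKM in Rarres2-/- libraries, against 4400, 3539 and 3598 FPKM in WT libraries. Rarres2-/- replicate 4 was below every WT library, while replicates 5 and 6 were above every one, a 3.68-fold range between the lowest and highest library. The log2 difference was -0.04 (SE 0.514, 95% interval -1.27 to 1.18). Without Rarres2-/- replicate 4 it was 0.55 (SE 0.156, adjusted p = 0.374 by limma, unadjusted p = 0.0148), and without WT replicate 1 it was 0.06. Without both of those libraries, a setting chosen after the data were seen, it was 0.65 (adjusted p = 0.10 by limma). Over all alternatives its adjusted p ran from 0.0923 to 1. Of the adipocyte markers, Adipoq, Fabp4, Pnpla2, Lpl and Pparg were lowest of the 6 libraries in Rarres2-/- replicate 4. Aqp7 was highest there, as was Plin1 by a narrow margin (844.3 FPKM against 843.8 FPKM in Rarres2-/- replicate 6). Cidec, Lipe and Cd36 lay between. The median deviation of replicate 4 over the adipocyte markers (-0.08) was not the lowest. Its endothelial sum was 182 FPKM, and the part of tissue makeup in its Retn level was not tested.

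Car3, the cytosolic carbonic anhydrase of adipocytes and slow muscle fibres, followed Retn from library to library. It was at 7494, 13298 and 13521 FPKM in Rarres2-/- libraries, against 12646, 10265 and 11187 FPKM in WT libraries. As with Retn, replicate 4 was the lowest and replicates 5 and 6 the highest of all. On the log2 scale, Rarres2-/- minus WT was -0.04 (SE 0.343, 95% interval -0.85 to 0.78), 0.24 without Rarres2-/- replicate 4 and 0.04 without WT replicate 1. WT replicate 1, with the highest sum of muscle markers (1525 FPKM), held the highest WT value of Car3. Every listed muscle marker was highest there except Myh1 (0.158 FPKM) and Myh2 (0 FPKM). The part of muscle RNA in the Car3 level was not tested. The ratio of Car3 to Adipoq in FPKM was 3.54, 4.77 and 4.81 in Rarres2-/- and 5.46, 4.05 and 4.36 in WT libraries.

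Nnat, an imprinted gene for a small membrane protein of the endoplasmic reticulum, was high where Retn and Car3 were low in Rarres2-/- replicate 4, and the reverse in replicate 5. It was at 1919, 658 and 1079 FPKM in Rarres2-/- libraries, against 1225, 998 and 795 FPKM in WT libraries. Here Rarres2-/- replicate 4 was the highest and replicate 5 the lowest of the 6 libraries, while WT replicate 1 held the highest WT value of Nnat, Retn and Car3 alike. The log2 difference was 0.16 (SE 0.412, 95% interval -0.82 to 1.14), and -0.23 without Rarres2-/- replicate 4. Nnat lies on chromosome 2 (157560078 to 157562522, GRCm38, plus strand) inside Blcap, which is read from the other strand and shares no exon bases with it. Blcap was at 103, 71.2 and 102 FPKM in Rarres2-/- libraries, against 69.4, 69.9 and 68.2 FPKM in WT libraries, a log2 difference of 0.39 (SE 0.191, adjusted p = 0.999 by limma). The Blcap groups did not overlap, as in 10.3% of all tested genes, whereas those of Nnat did.

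Nampt encodes the rate-limiting enzyme of NAD salvage and is also released from fat, where it was named visfatin. It was at 42.7, 78.2 and 57.1 FPKM in Rarres2-/- libraries, against 57.4, 56.7 and 44.8 FPKM in WT libraries. Both the lowest and the highest value belonged to Rarres2-/- libraries. On the log2 scale, Rarres2-/- minus WT was 0.13 (SE 0.247, 95% interval -0.46 to 0.71), and it was -0.09 without Rarres2-/- replicate 5. When limma weighted libraries by their fit, it was 0.53 with an adjusted p of 0.0530, in a fit that gave Rarres2-/- replicate 5 a weight of 6.19 and replicate 4 one of 0.179. Over all alternatives the adjusted p ran from 0.0530 to 1.

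Agt, the precursor of the vasoconstrictor angiotensin, was low and even. It was at 21.1, 17.4 and 19.5 FPKM in Rarres2-/- libraries, against 22.9, 18.0 and 18.0 FPKM in WT libraries. The highest values fell in Rarres2-/- replicate 4 and WT replicate 1, the libraries with endothelial sums of 182 and 278 FPKM, and the part of that in Agt was not tested. The log2 difference was -0.02 (SE 0.158, 95% interval -0.39 to 0.36), the narrowest interval of the 8, a ratio between 0.762 and 1.28. It was 0.05 without Rarres2-/- replicate 5 and 0.09 without WT replicate 1.

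Apln, which encodes the peptide apelin, was close to the minimum level for a test. It was at 2.98, 2.83 and 2.78 FPKM in Rarres2-/- libraries, against 3.58, 2.94 and 1.41 FPKM in WT libraries. The Rarres2-/- libraries were tightly grouped inside the WT range, which WT replicate 3 widened downwards. On the log2 scale, Rarres2-/- minus WT was 0.13 (SE 0.250, 95% interval -0.46 to 0.73), and -0.14 without WT replicate 3.

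**Figure D2:**
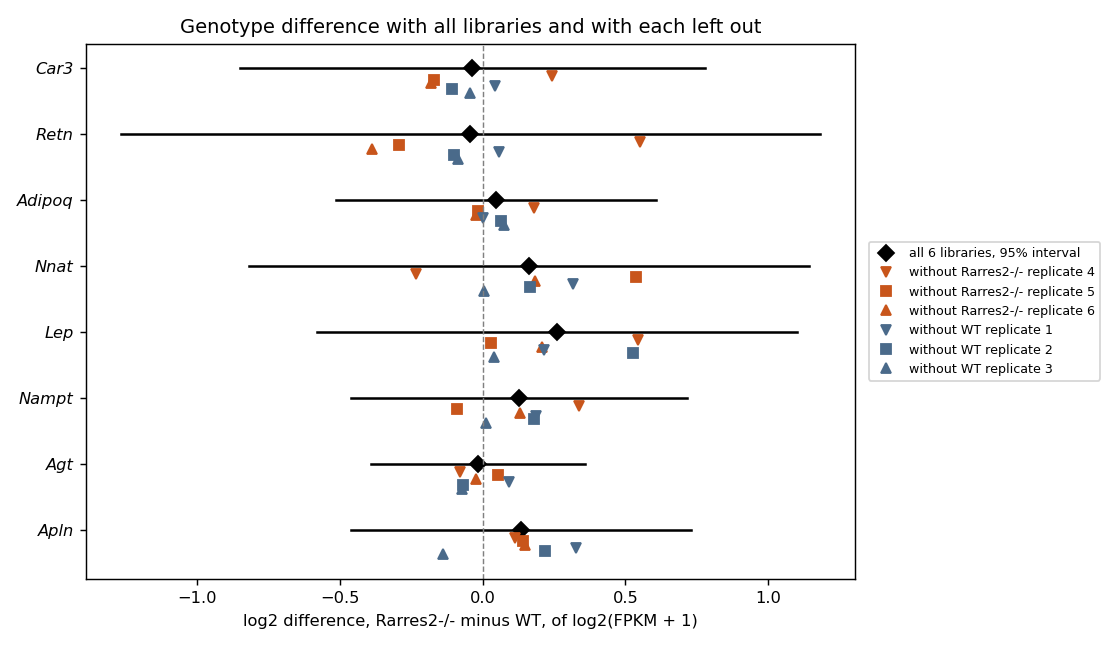
Log2 difference, Rarres2-/- minus WT, of log2(FPKM + 1) for the 8 genes: black diamonds and lines are the estimate and 95% interval from all 6 libraries, and coloured symbols the estimate with 1 library left out. All 8 intervals span 0, and Retn moves furthest, between -0.39 and 0.55, depending on the library left out.

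Across the 6 libraries the genes fell into patterns that did not follow genotype. The SD of log2 values over the 6 libraries was 0.665 for Retn and 0.534 for Nnat, beside a median of 0.254 over all tested genes, and 0.148 for Agt. As a description over 6 points that share their normalization and tissue makeup, log2 levels of Retn and Car3 had a Pearson r of 0.986, Adipoq and Retn 0.857, and Lep and Nampt 0.870. The r was -0.827 for Nnat and Adipoq, -0.715 for Nnat and Retn and -0.702 for Agt and Adipoq. Without Rarres2-/- replicate 4, over 5 points, r was 0.934 for Retn and Car3, 0.610 for Adipoq and Retn and 0.836 for Lep and Nampt. It was then -0.561 for Nnat and Adipoq, -0.00062 for Nnat and Retn and -0.677 for Agt and Adipoq. In Rarres2-/- replicate 4, the deviation from the mean of all libraries on the log2 scale was -1.21 for Retn, -0.58 for Car3, -0.44 for Lep, -0.36 for Nampt and -0.24 for Adipoq, against 0.87 for Nnat, 0.12 for Agt and 0.11 for Apln. That library was the lowest of 6 for 4 of the 8 genes, and the lowest for 28.6% of all tested genes.

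**Figure D3:**
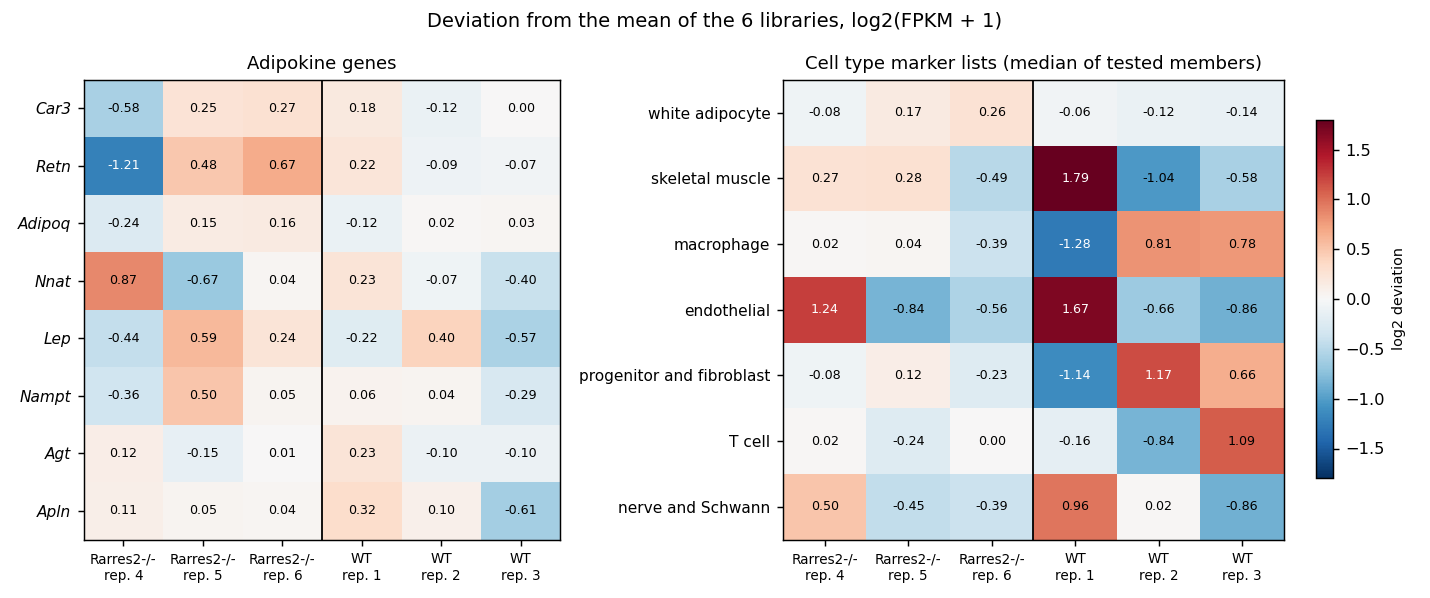
Deviation of each library (columns, Rarres2-/- left of WT) from the mean of the 6 libraries on the log2(FPKM + 1) scale, for the 8 genes (left) and for the median of tested members of 7 marker lists (right). Retn, Car3, Lep, Nampt and Adipoq are lowered and Nnat raised in Rarres2-/- replicate 4, and endothelial markers are raised there (1.24) and in WT replicate 1 (1.67).

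The genes most like each member were taken as the 3 with the highest Pearson r over the 6 libraries among the tested genes. Symbols of predicted gene models and unnamed clones were left out of this search. It is a description with no test, since the best of so many genes over 6 points is always high. For Adipoq they were Bcap31, Decr1 and Apool (0.997, 0.997 and 0.997), and for Retn Pstk, Tmco1 and Sin3b (0.999, 0.999 and 0.998). For Car3 they were Apoc2, Ubxn6 and Llgl2 (0.998, 0.996 and 0.994), and for Lep the chaperone gene Dnajb1, Cept1 and Rfx2 (0.985, 0.980 and 0.978). Among the 3 closest to Nampt were Abcb10 and Cnst (0.972 and 0.969). Apln was closest to Polr3a, Egln1, an oxygen-sensing prolyl hydroxylase, and Apbb2 (0.975, 0.975 and 0.966), Agt to Meox1, Ercc1 and Birc6 (0.999, 0.998 and 0.996), and Nnat to Zfp623, Ext1 and Lrg1 (0.981, 0.979 and 0.975). Bcap31 was at 207, 456 and 451 FPKM in Rarres2-/- libraries and 273, 338 and 343 FPKM in WT libraries, lowest in the same library as Adipoq and highest in the same pair.

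The receptors of these hormones were measured in the same fat. Of 11 receptor and binding partner genes, 8 were tested and 0 passed, with 4 higher and 4 lower in Rarres2-/- and a median log2 difference of -0.06, beside -0.01 over all tested genes. Adipor2, an adiponectin receptor, was at 290, 238 and 238 FPKM in Rarres2-/- libraries, against 143, 188 and 167 FPKM in WT libraries. Its groups did not overlap, as in 5.81% of all tested genes in that direction, with a log2 difference of 0.62 (SE 0.190, adjusted p = 0.999 by limma). Adipor1 averaged 91.8 ± 8.99 FPKM in Rarres2-/- and 83.9 ± 4.03 FPKM in WT libraries (SD, n = 3 each), with overlap. Agtr1a, the main angiotensin receptor gene, was at 4.42, 2.82 and 2.15 FPKM in Rarres2-/- libraries, against 4.69, 6.43 and 4.59 FPKM in WT libraries. These groups did not overlap either, as in 4.53% of all tested genes in that direction (log2 difference -0.62, SE 0.235, adjusted p = 0.999 by limma). Lepr, the leptin receptor gene, was not tested, at 0.112 to 0.701 FPKM in Rarres2-/- and 0.147 to 0.331 FPKM in WT libraries. Aplnr, the apelin receptor gene, was at 16.6 FPKM in WT replicate 1 and at 1.23 to 3.70 FPKM in the other 5 libraries, and WT replicate 1 also had the highest endothelial sum (278 FPKM), whose part in this value was not tested.

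A list of other fat factors, most of them secreted (Mest is not), gave a mixed picture, with 30 of 32 listed genes present and 26 tested. None passed, 16 were higher and 10 lower in Rarres2-/-, and the median log2 difference was 0.04, beside -0.01 over all tested genes. Groups did not overlap for 3 genes that were higher (Mest and Nrg4 among them) and 3 that were lower (Cfd, Sparc and Fndc5), beside 5.81% and 4.53% of all tested genes. Cfd, the gene of the complement protease adipsin and the highest of the list, was at 10472, 11748 and 12332 FPKM in Rarres2-/- libraries, against 25747, 17264 and 13424 FPKM in WT libraries. The log2 difference of Cfd was -0.66 (SE 0.345, adjusted p = 0.999 by limma), and it lay between -0.88 and -0.41 with 1 library left out. Mest, an imprinted gene linked to fat expansion, was at 98.3, 13.4 and 26.2 FPKM in Rarres2-/- libraries, against 5.596, 6.89 and 7.45 FPKM in WT libraries (log2 difference 2.16, SE 0.643, adjusted p = 0.999 by limma).

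**Figure D4:**
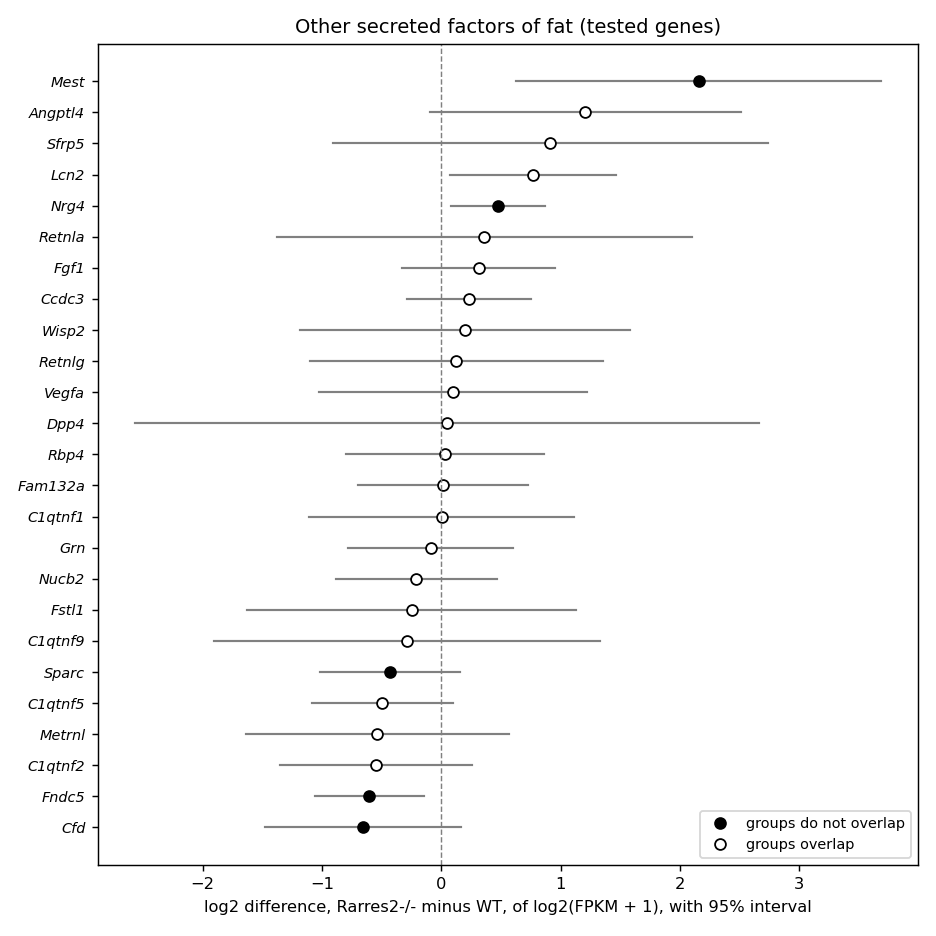
Log2 difference, Rarres2-/- minus WT, of log2(FPKM + 1) with its 95% interval for 25 of the 26 tested genes of other fat factors, most of them secreted. Filled circles mark the 5 genes shown whose groups do not overlap, with Mest (2.16) at the top and Cfd (-0.66) at the bottom.

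Nrg4, a neuregulin released by brown and beige adipocytes, was at 48.4, 53.0 and 63.2 FPKM in Rarres2-/- libraries, against 42.8, 39.4 and 35.0 FPKM in WT libraries (log2 difference 0.47, SE 0.167, adjusted p = 0.999 by limma). Fndc5, the gene of the irisin precursor, was at 0.510, 0.889 and 0.926 FPKM in Rarres2-/- libraries, against 2.15, 1.46 and 1.48 FPKM in WT libraries. Sparc, a matrix-binding glycoprotein, averaged 1799 ± 233 FPKM in Rarres2-/- and 2430.3 ± 435 FPKM in WT libraries (SD, n = 3 each). Nrg4, Fndc5, Aplnr, Lepr, Crem, Pias3 and Ren1 were named after their values were seen. Retnla, a relative of resistin made by alternatively activated macrophages, was at 942, 1223 and 1119 FPKM in Rarres2-/- libraries, against 241, 1331 and 1892 FPKM in WT libraries, lowest in WT replicate 1, which also had the lowest macrophage sum (419 FPKM). The part of macrophage RNA in Retnla was not tested.

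Regulators of the Adipoq and Lep genes included Cebpb, whose groups did not overlap but which did not pass the test. This gene, which encodes a C/EBP factor of adipocyte differentiation, was at 233, 191 and 317 FPKM in Rarres2-/- libraries, against 151, 117 and 134 FPKM in WT libraries. Its log2 difference was 0.86 (SE 0.235, 95% interval 0.30 to 1.42), with an adjusted p of 0.999 by limma. Cebpa averaged 648 ± 114 FPKM in Rarres2-/- and 536 ± 88.1 FPKM in WT libraries (SD, n = 3 each). Pparg, the nuclear receptor that directs adipocyte genes, was at 84.4, 186 and 185 FPKM in Rarres2-/- libraries, against 181, 210 and 151 FPKM in WT libraries, lowest in Rarres2-/- replicate 4, as was Adipoq. Of 14 tested regulators 0 passed, with 9 higher and 5 lower in Rarres2-/- and a median log2 difference of 0.20. Crem was the other gene whose groups did not overlap. Both it and Cebpb were higher in Rarres2-/-, beside 5.81% of all tested genes.

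The machinery that folds adiponectin in the endoplasmic reticulum gave no call. All 14 listed genes were tested, 0 passed, 11 were higher and 3 lower in Rarres2-/-, and the median log2 difference was 0.09. Ero1l, an oxidase that forms disulfide bonds during adiponectin secretion, was at 7.65, 8.01 and 7.24 FPKM in Rarres2-/- libraries, against 4.81, 6.97 and 6.15 FPKM in WT libraries. The groups of Ero1l and of Sel1l did not overlap, both higher in Rarres2-/-, beside 5.81% of all tested genes. The chaperone gene Calr averaged 194 ± 18.8 FPKM in Rarres2-/- and 192 ± 5.81 FPKM in WT libraries (SD, n = 3 each). Hspa5, the gene of the chaperone BiP, was at 148, 153 and 141 FPKM in Rarres2-/- libraries, against 102, 143 and 135 FPKM in WT libraries, with overlap (log2 difference 0.23, SE 0.186, adjusted p = 0.999 by limma).

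The renin-angiotensin genes around Agt were largely present except for renin. Ren1 was listed at 0 in all 6 libraries. Of 16 listed genes 11 were tested, Agt included, and 0 passed, with 6 higher and 5 lower in Rarres2-/- and a median log2 difference of 0.24. Ace, the angiotensin converting enzyme gene, was at 47.0, 43.1 and 26.4 FPKM in Rarres2-/- libraries, against 13.6, 76.6 and 72.1 FPKM in WT libraries. Its lowest value was again in WT replicate 1. Mme, the gene of the peptidase neprilysin, was at 21.9, 24.4 and 20.5 FPKM in Rarres2-/- libraries, against 11.99, 16.5 and 19.5 FPKM in WT libraries (log2 difference 0.47, SE 0.198, adjusted p = 0.999 by limma).

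Around Nampt, 14 of 18 listed genes of NAD synthesis and use were tested, Nampt included. None passed, 6 were higher and 8 lower in Rarres2-/-, and the median log2 difference was -0.04. Nnt, the mitochondrial transhydrogenase gene, was at 6.53, 9.84 and 7.47 FPKM in Rarres2-/- libraries, against 4.19, 5.54 and 2.96 FPKM in WT libraries. The Nnt groups did not overlap, as in 5.81% of all tested genes in that direction (log2 difference 0.79, SE 0.230, adjusted p = 0.999 by limma). Nnmt, which methylates nicotinamide and so removes it from salvage, was at 131, 215 and 246 FPKM in Rarres2-/- libraries, against 229, 213 and 204 FPKM in WT libraries, with Rarres2-/- replicate 4 the lowest.

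Among the 16 carbonic anhydrase genes Car3 stood alone in level, with the next highest, mitochondrial Car5b, at 71.8, 215 and 170 FPKM in Rarres2-/- and 103, 114 and 94.9 FPKM in WT libraries. Of 10 tested members, Car3 included, 0 passed, with 4 higher and 6 lower in Rarres2-/- and a median log2 difference of -0.03. Car4, a membrane-bound form found on capillary endothelium, was at 81.8 FPKM in WT replicate 1 and at 10.6 to 23.5 FPKM in the other libraries, the highest of these in Rarres2-/- replicate 4. Those are the libraries with the raised endothelial sums, and the part of endothelial RNA in Car4 was not tested. Of 11 tested imprinted genes in the list with Nnat, 7 were higher and 4 lower in Rarres2-/- (median log2 difference 0.06), and of 11 in the apelin and hypoxia list 7 were higher and 4 lower (median 0.10), with 0 passing in each.

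Genes that carry or damp the leptin signal inside cells were tested in the same way. Of 9 tested, 2 were higher and 7 lower in Rarres2-/-, with a median log2 difference of -0.13 and 0 passing. Socs3, the feedback inhibitor of the leptin receptor, was at 3.14, 2.60 and 1.78 FPKM in Rarres2-/- libraries, against 3.79, 5.61 and 5.66 FPKM in WT libraries (log2 difference -0.78, SE 0.214, adjusted p = 0.999 by limma). Irs2, an adaptor of the insulin receptor, was at 14.9, 9.06 and 11.6 FPKM in Rarres2-/- libraries, against 4.72, 4.36 and 5.59 FPKM in WT libraries (log2 difference 1.104, SE 0.196, adjusted p = 0.880 by limma). Groups did not overlap for Irs2, which was higher in Rarres2-/-, and for Socs3 and Pias3, which were lower, beside 5.81% and 4.53% of all tested genes. Over all 10 lists, 115 genes other than the 8 were tested and 0 passed. Groups did not overlap for 12 that were higher and 6 that were lower in Rarres2-/-, 15.7% of the 115 beside 10.3% of all tested genes. The lists were chosen with earlier results of these data known, so the 2 shares are a description and no test of the lists.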

How the data were processed

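RNA-seq libraries of inguinal fat, 3 of Rarres2-/- and 3 of WT mice, were analysed. Per the file headers, the authors' deposited unit is FPKM, with a separate table for each library. For WT replicate 3 the header carries a sample name and no unit, and its rows and scale match the other 5. Bowtie and mm10 are named in the submitters' processing notes. Nothing in the sources used here names the FPKM program, the annotation, the strand setting or any version. Rows without a symbol (737, 0.793% to 4.91% of the sum) were left out. FPKM removes depth, so absolute depth and counting intervals are unknown. Relative depth came from values below 0.15 FPKM.

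Tests ran on the 11086 genes whose mean reached 1 FPKM. Values entered as log2(FPKM + 1), a scale that shrinks the changes of weakly expressed genes. The tool was limma 3.58.1 under R 4.3.3 (eBayes with trend, two-sided, genotype only). Adjusted p-values are Benjamini-Hochberg over all tested genes, with a threshold of 0.05. The scripts were tested on simulated data. The members and 21 gene lists (10 of pathways, 11 of markers) were chosen with earlier results of these data known. Named genes are the members, up to 3 members of a list by level and 2 by smallest p, and the 3 genes most correlated with each member. Some genes that this takes are given only in counts, and results for some items are not reported here. Alternatives were another pseudocount (0.1), other filters, scalings, variance models and weights, and each library left out. Annotation was GENCODE M21 and RefSeq, both on GRCm38, the assembly of mm10.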

Additional observations from a re-analysis of the deposited data

How the results depend on the processing

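The 8 genes had adjusted p of at least 0.0530 by limma in all 119 alternative fits, so none was called, and 4 of these fits gave an unadjusted p under 0.05 (Retn in 3 and Nampt in 1). Signs of these small differences were less stable, and the cause was not tested. With 1 library left out, log2 differences ran from -0.023 to 0.18 for Adipoq, 0.03 to 0.54 for Lep, -0.39 to 0.55 for Retn, -0.090 to 0.34 for Nampt, -0.14 to 0.33 for Apln, -0.080 to 0.094 for Agt, -0.23 to 0.54 for Nnat and -0.18 to 0.24 for Car3. With array weights they were 0.53 for Retn, -0.36 for Nnat and 0.29 for Car3. With quantile normalization they were 0.070 for Retn and 0.16 for Car3. Without WT replicate 1 and Rarres2-/- replicate 4 together, chosen after the data were seen, they were 0.65 for Retn, 0.030 for Agt, -0.080 for Nnat and 0.32 for Car3, and 0.047 for Car14, which is -0.32 with all libraries. Of 24 other named genes, 15 passed with array weights.

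The count of genes past the threshold was 0 with all libraries, and 1 with a filter of 5 FPKM in 3 libraries, with upper-quartile scaling and with scale factors computed without the 20 genes of highest level, in each case Rarres2. It was 1524 with array weights (770 higher, 754 lower) and 68 without WT replicate 1 and Rarres2-/- replicate 4 together (14 higher, 54 lower), and 0 to 1 with 1 library left out (Rarres2 without Rarres2-/- replicate 5, and Snord4a, a small nucleolar RNA gene, without Rarres2-/- replicate 6). Apln could not be fitted with the filter of 5 FPKM. No paired analysis was possible because the genotypes share no replicate numbers. With 3 libraries a group, the intervals span ratios of 0.762 to 1.28 (Agt, the narrowest) to 0.416 to 2.27 (Retn, the widest). Differences inside them remain compatible with the data, but the intervals are not limits of detection. Larger differences could also go uncalled. Cebpb and Irs2, among other list genes, had log2 intervals that excluded 0 (0.30 to 1.42 and 0.64 to 1.57). Of the 115 list genes, 13 (11.3%) had an unadjusted p under 0.05 by limma, beside 3.93% of all tested genes. The lists were chosen with earlier results of these data known. The adjusted p of Cebpb and Irs2 were still 0.999 and 0.880 by limma over all tested genes.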
